A study of Homo sapiens with 9 samples.

Results

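SLBP, NPAT, CASP8AP2, LSM10, LSM11 and ERI1 encode factors that act on the transcription, the 3′ end processing and the decay of replication-dependent histone mRNAs. They were found in the count table by gene name. The rule uses no measured value, but the set was proposed with earlier results of these data known. All 6 were present among 58929 genes, and all 6 were among the 16065 genes that passed the filter on low counts and were tested. The levels come from RNA sequencing of FaDu cells, an HNSCC (head and neck squamous cell carcinoma) line that the labels give as wild type. There were 3 groups of 3 libraries: YKL-5-124 at 250 nM, samuraciclib at 250 nM and the vehicle DMSO. The treatment lasted 48 h by the treatment protocol and 72 h by the design of the series. YKL-5-124 is a covalent inhibitor and samuraciclib an ATP-competitive inhibitor of CDK7, which activates other cyclin-dependent kinases and, as part of TFIIH, phosphorylates RNA polymerase II. All groups are of 1 cell line, and the labels do not say whether the libraries of a group came from separate cultures, so the p-values measure the spread between these libraries.

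Replication-dependent histone mRNAs are made in bulk during S phase and, unlike other mRNAs, normally end in a conserved stem-loop without a poly(A) tail. Their genes are transcribed in histone locus bodies, nuclear foci that NPAT organizes as a substrate of cyclin E-CDK2 and that also hold CASP8AP2 (FLASH). SLBP binds the stem-loop, while the U7 snRNP, with its particular Sm-like proteins LSM10 and LSM11, pairs with a downstream element and brings the cleavage factors. LSM11 binds FLASH, and both recruit the histone cleavage complex of CPSF2 (CPSF100), CPSF3 (CPSF73) and symplekin (SYMPK). ERI1 is an exonuclease that trims the 3′ end of histone mRNA and takes part in its decay when DNA replication stops.

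The stem-loop is the sequence on which SLBP and ERI1 act. For each core histone class, that of the most abundant tested gene among those with a match is shown here. It reads 5′ to 3′ in the sense of the mRNA, with U written as T. The capitals mark the 16 bases of the stem-loop, a stem of 6 base pairs around a loop of 4 bases, and 5 bases on each side are in lower case. The sequences are of GENCODE transcripts on GRCh38.
HIST1H2AC, chr6:26124664-26124689, plus strand: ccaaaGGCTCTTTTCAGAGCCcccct
HIST1H2BK, chr6:27146361-27146386, minus strand: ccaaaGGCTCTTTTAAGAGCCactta
HIST1H3G, chr6:26270918-26270943, minus strand: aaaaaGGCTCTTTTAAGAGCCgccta
HIST1H4I, chr6:27139649-27139674, plus strand: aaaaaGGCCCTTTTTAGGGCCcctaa
The H2A and H2B genes differ in the loop, and the H4 gene differs from them in the stem as well. A stem-loop of this form was found in 37 of the 44 histone genes tested, in 7 distinct versions, and that of HIST1H2AC was shared by 20 of them. Only single-exon transcripts were searched, so a gene without a match may still have a stem-loop.

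The libraries held 18264302 to 24613892 counts with YKL-5-124, 19346587 to 22111350 with samuraciclib and 18096180 to 28018126 with DMSO. In 1 library of each group (YKL-5-124 2, samuraciclib 2 and DMSO 3) RN7SL2, a 7SL RNA gene, stood at 24.9 to 59.3 CPM (the count relative to the TMM-scaled library size), against 696 to 981 CPM in the others. All 6 squamous epithelial markers were detected, with summed levels of 2557 to 2728 CPM with YKL-5-124, 3124 to 3222 CPM with samuraciclib and 3134 to 3332 CPM with DMSO. KRT5, at 1763 to 2694 CPM, made up most of these sums, and the markers did not move together. Against DMSO, CDH1 was higher by a log2 change of 0.996 with YKL-5-124 and 0.80 with samuraciclib. KRT14 was lower with YKL-5-124 (-0.5002). Of 7 markers of fibroblasts, endothelium and leukocytes none was above 5.96 CPM, and their summed levels were 4.82 to 6.50 CPM with YKL-5-124, 5.66 to 7.45 CPM with samuraciclib and 4.86 to 6.07 CPM with DMSO. CDK7 itself averaged 71.9 ± 2.90 CPM with YKL-5-124, 77.4 ± 3.88 CPM with samuraciclib and 80.1 ± 5.40 CPM with DMSO (SD, n = 3 each), and was not called in any comparison.

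A gene was called where the adjusted p was below 0.05 over all tested genes (edgeR's quasi-likelihood F-test) and the log2 fold change exceeded 0.5 in either direction. In the counts over lists below, genes that rose or fell are those called higher or lower. By this rule none of the 6 genes was called with YKL-5-124 against DMSO, a comparison in which 21.8% of all tested genes were called. None was called with samuraciclib against DMSO either, where the share of all genes was 17.7%. DESeq2 also called 0 in both comparisons. With YKL-5-124 against samuraciclib 1 gene was called, LSM11, which was lower, beside 6.92% of all genes called and 2.46% called lower. By the adjusted p alone 4 genes differed between YKL-5-124 and DMSO (ERI1 higher, SLBP, CASP8AP2 and LSM11 lower) and 3 between samuraciclib and DMSO (ERI1 higher, SLBP and CASP8AP2 lower). That rule took 49.3% of all genes with YKL-5-124 (24.1% higher, 25.2% lower) and 44.1% with samuraciclib (21% higher, 23.1% lower). The adjusted p of LSM11 with YKL-5-124 missed the threshold without the 3 libraries low in RN7SL2 (0.134), without DMSO 3 (0.0602) and with library size alone as scaling (0.0765). That of SLBP with samuraciclib missed it with library size alone (0.143) and without samuraciclib 2 (0.0766), samuraciclib 3 (0.0615), DMSO 1 (0.0589) or DMSO 2 (0.110). The median size of the log2 fold change was 0.30 for the 6 genes with YKL-5-124, against 0.28 for all tested genes, and 0.21 with samuraciclib, against 0.26. The 2 comparisons with DMSO share the DMSO libraries.

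**Figure D1:**
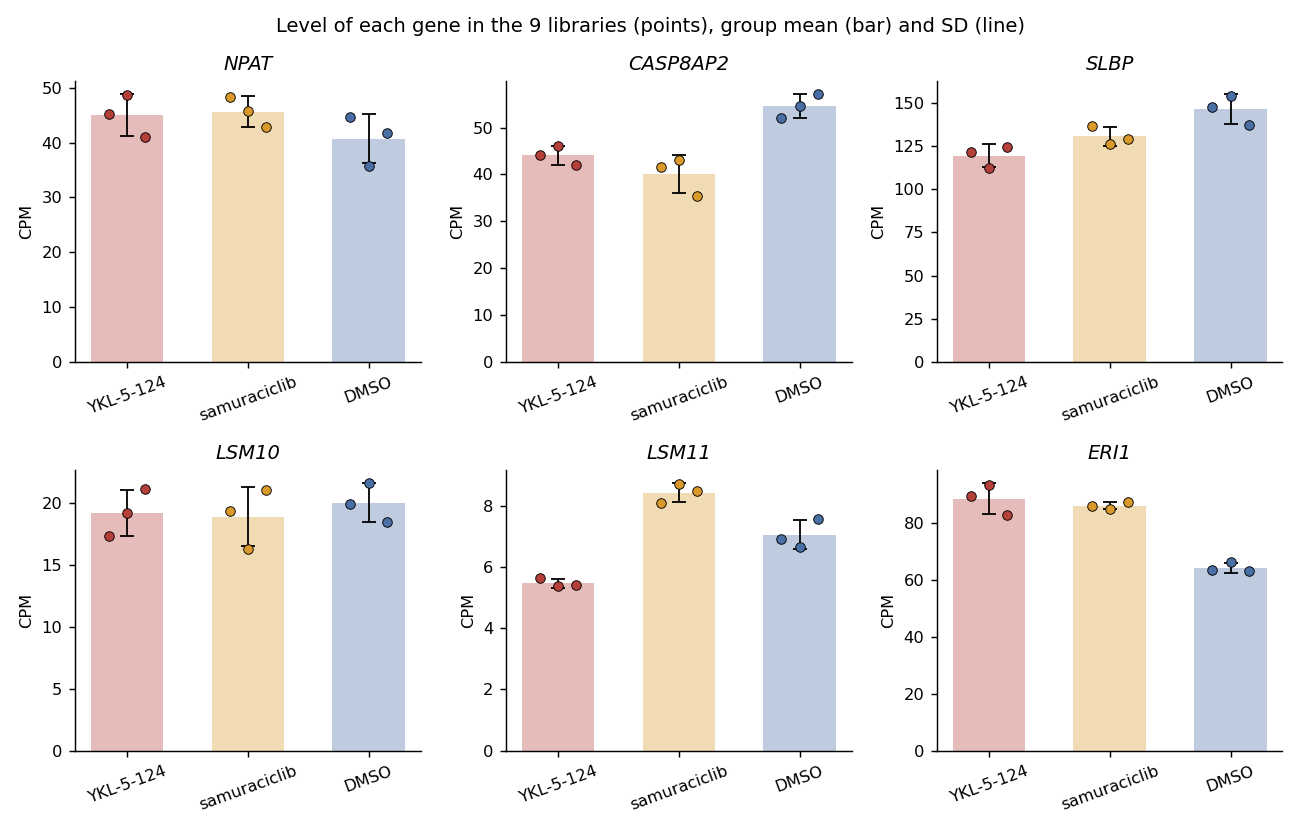
Level of each of the 6 genes in CPM, with a point for each library, a bar for the group mean and a line for the SD (n = 3). ERI1 lay at 82.7 to 93.4 CPM with YKL-5-124 and 84.7 to 87.3 CPM with samuraciclib, above 63.0 to 66.0 CPM with DMSO, and LSM11 was lowest with YKL-5-124 and highest with samuraciclib.

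Per length of the gene model, SLBP was the most abundant and LSM11 the least abundant of the 6 in every group. SLBP stood at 59.0 ± 3.22 CPM per kb with YKL-5-124, 64.5 ± 2.75 with samuraciclib and 72.3 ± 4.22 with DMSO (SD, n = 3 each). LSM11 stood at 0.83 ± 0.021 CPM per kb with YKL-5-124, 1.28 ± 0.047 with samuraciclib and 1.07 ± 0.071 with DMSO. The order of the other 4 genes differed between the groups. ERI1 and LSM10 overlapped with YKL-5-124 (13.9 ± 0.849 and 12.8 ± 1.27 CPM per kb) and with samuraciclib (13.5 ± 0.203 and 12.6 ± 1.61), whereas with DMSO every LSM10 library was above every ERI1 library (13.4 ± 1.05 and 10.05 ± 0.257). NPAT and CASP8AP2 overlapped with YKL-5-124 (5.97 ± 0.506 and 5.39 ± 0.251 CPM per kb). With samuraciclib every NPAT library was above every CASP8AP2 library (6.06 ± 0.370 and 4.90 ± 0.493), and with DMSO the order was the other way round (5.40 ± 0.595 and 6.68 ± 0.305).

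The comparison of the histone locus body factors asks whether the scaffold of histone transcription itself differed after CDK7 inhibition. NPAT (ENSG00000149308, chromosome 11, 108157215 to 108222642, minus strand, GRCh38) had 45.3, 48.6 and 41.0 CPM with YKL-5-124, 48.4, 45.7 and 42.8 CPM with samuraciclib and 44.6, 35.8 and 41.7 CPM with DMSO. The 3 groups overlapped. The log2 fold change was 0.15 ± 0.080 with YKL-5-124 (± SE, 95% interval -0.02 to 0.31, adjusted p = 0.139) and 0.17 ± 0.080 with samuraciclib (-0.0024 to 0.33, adjusted p = 0.102). Between YKL-5-124 and samuraciclib it was -0.02 ± 0.079 (-0.19 to 0.15, adjusted p = 0.890). These intervals end short of a log2 change of 0.5. The adjusted p passed with YKL-5-124 when library size alone was the scaling (0.00834) or YKL-5-124 3 was left out (0.0467), and with samuraciclib under library size alone (0.0295) or without DMSO 1 (0.0452).

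CASP8AP2 (ENSG00000118412, chromosome 6, 89829894 to 89874436, plus strand), which encodes the histone locus body protein FLASH, had 44.2, 46.0 and 41.9 CPM with YKL-5-124, 41.6, 43.0 and 35.5 CPM with samuraciclib and 52.1, 54.6 and 57.1 CPM with DMSO. Every library of either inhibitor was below every DMSO library, while the inhibitor groups overlapped. The log2 fold change was -0.31 ± 0.069 with YKL-5-124 (95% interval -0.46 to -0.16, adjusted p = 0.00119, 1.24-fold lower) and -0.45 ± 0.070 with samuraciclib (-0.59 to -0.30, adjusted p = 4.59e-05, 1.36-fold lower). Both sizes were inside the fold threshold, so the gene was not called. YKL-5-124 and samuraciclib differed by 0.14 ± 0.071 on the log2 scale (-0.01 to 0.29, adjusted p = 0.171, or 0.0335 with library size alone as scaling).

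The NPAT start lies head to head with that of ATM, the kinase of the DNA double-strand break response. In the deposited gene models the starts are 158 bases apart and the models overlap by 159 bases on opposite strands. Since the strand setting of the counting is not given in the sources used here, reads from that overlap may not be told apart. ATM had 62.8, 55.3 and 54.8 CPM with YKL-5-124, 51.1, 51.6 and 47.6 CPM with samuraciclib and 113.3, 102.3 and 100.2 CPM with DMSO. All 6 inhibitor libraries were below the 3 DMSO libraries. ATM fell by 0.87 ± 0.063 on the log2 scale with YKL-5-124 (95% interval -1.002 to -0.74, adjusted p = 2.8e-09, 1.83-fold lower) and by 1.07 ± 0.064 with samuraciclib (-1.20 to -0.93, adjusted p = 4.98e-10, 2.10-fold lower). ATM was thus called lower in both comparisons, while the intervals of NPAT included 0 in both. The difference between the genes was not tested. Of the other 5 genes, SLBP had a divergent neighbour within 1000 bases, the lincRNA AC016773.1, which had at most 24 counts in a library and was not called.

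**Figure D2:**
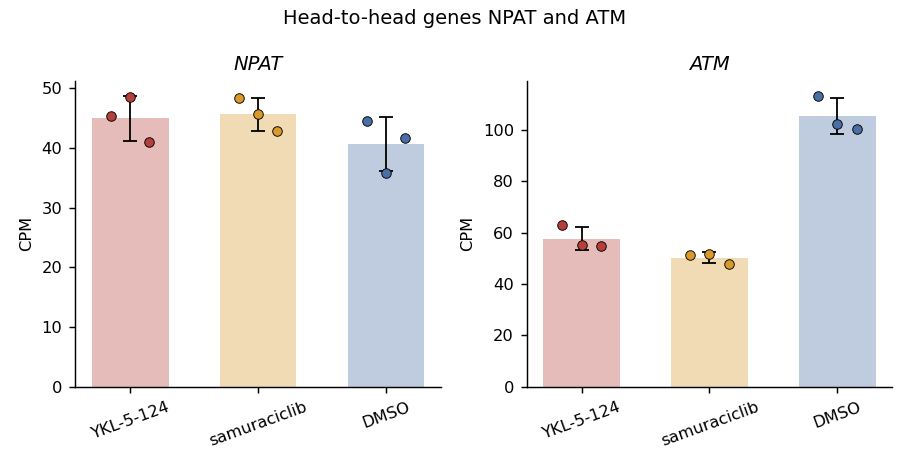
NPAT and its head-to-head neighbour ATM in CPM, with a point for each library, a bar for the group mean and a line for the SD (n = 3), on separate axes from 0. NPAT overlaps between the groups at 35.8 to 48.6 CPM, while ATM lies at 47.6 to 62.8 CPM in the inhibitor libraries and at 100.2 to 113.3 CPM with DMSO.

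The promoters of NPAT, of CASP8AP2, whose level with either inhibitor was below that with DMSO, and of LSM11, the 1 gene called, are shown from 250 bases before to 50 bases after the RefSeq start (GRCh38.p14), 5′ to 3′ on the strand of the gene. Capitals mark matches on either strand to the E2F words TTTGGCGC, TTTCCCGC, TTTCGCGC and TTTGCCGC or to CCAAT, the word bound by NF-Y, which reads ATTGG on the other strand.
NPAT, chr11:108222589-108222888, minus strand: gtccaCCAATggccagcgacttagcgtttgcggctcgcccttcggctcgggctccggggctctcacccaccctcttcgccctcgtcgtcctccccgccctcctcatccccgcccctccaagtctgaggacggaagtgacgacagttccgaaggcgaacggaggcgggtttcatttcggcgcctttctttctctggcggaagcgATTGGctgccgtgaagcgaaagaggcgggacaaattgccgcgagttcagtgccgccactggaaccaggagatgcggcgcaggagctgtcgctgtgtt
CASP8AP2, chr6:89829630-89829929, plus strand: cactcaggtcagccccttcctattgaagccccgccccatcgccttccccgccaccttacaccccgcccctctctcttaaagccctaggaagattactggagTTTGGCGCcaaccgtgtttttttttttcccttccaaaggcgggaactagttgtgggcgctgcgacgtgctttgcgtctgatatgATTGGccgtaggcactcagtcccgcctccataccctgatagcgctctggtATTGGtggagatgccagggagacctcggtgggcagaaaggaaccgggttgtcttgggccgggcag
LSM11, chr5:157743462-157743761, plus strand: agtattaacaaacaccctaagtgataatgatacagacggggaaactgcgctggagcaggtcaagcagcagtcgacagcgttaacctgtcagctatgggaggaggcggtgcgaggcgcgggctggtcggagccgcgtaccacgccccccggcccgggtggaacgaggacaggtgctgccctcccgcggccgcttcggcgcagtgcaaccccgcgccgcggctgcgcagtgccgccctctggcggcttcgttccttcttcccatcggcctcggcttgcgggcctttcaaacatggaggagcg
Promoter sequences were looked at for 5 of the 6 genes, ERI1 being left out. An E2F word was found in 1 of them, CASP8AP2, and in 3.31% of 35116 RefSeq promoters of this length. CCAAT was found in 3 of them (NPAT, CASP8AP2 and LSM10) and in 34.6% of all promoters. The promoter of SLBP, whose level was also below DMSO with either inhibitor, is not printed and held neither word. The NPAT window shares 72 bases with the first of the ATM windows, whose RefSeq start is 429 bases from that of NPAT. A match is a description of the letters and not a measured binding site.

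The next comparison concerns the factor that binds the stem-loop. SLBP (ENSG00000163950, chromosome 4, 1692800 to 1712555, minus strand) had 121.9, 112.1 and 124.5 CPM with YKL-5-124, 136.9, 126.2 and 129.0 CPM with samuraciclib and 147.8, 154.2 and 137.3 CPM with DMSO. The 3 groups did not overlap, in the order YKL-5-124, samuraciclib, DMSO from low to high. The gaps were narrow, 124.5 against 126.2 CPM and 136.9 against 137.3 CPM. With library size alone as scaling, samuraciclib overlapped with both other groups. The share of all genes whose groups do not overlap was not counted, for SLBP or for the other genes. The log2 fold change was -0.29 ± 0.055 with YKL-5-124 (95% interval -0.41 to -0.18, adjusted p = 0.000224, 1.23-fold lower) and -0.16 ± 0.054 with samuraciclib (-0.28 to -0.05, adjusted p = 0.0211, 1.12-fold lower), both inside the fold threshold. Between YKL-5-124 and samuraciclib it was -0.13 ± 0.055 (-0.24 to -0.02), which missed the adjusted threshold (adjusted p = 0.0931).

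SLBP protein is phosphorylated and degraded at the end of S phase, so the genes of that process were listed beside it. Of 11 genes of SLBP phosphorylation and turnover, 1 was called lower and none higher with YKL-5-124 (median log2 fold change -0.30, against 0.01 for all genes). With samuraciclib 1 was called lower and none higher (median -0.12, against 0.001 for all genes). Called or not, the 11 genes ranged from -0.51 to 0.04 with YKL-5-124 and from -0.61 to 0.30 with samuraciclib. Of all tested genes, 9.93% were called lower with YKL-5-124 and 9.55% with samuraciclib. CCNA2, the cyclin A that acts with CDK1 on SLBP, fell by 0.51 ± 0.050 with YKL-5-124, just past the threshold, and the call was lost without YKL-5-124 3 (-0.48), DMSO 2 (-0.499) or DMSO 3 (-0.4998), with library size alone as scaling (-0.38) and with a minimum mean count of 50 (-0.475). The CCNA2 model overlaps that of EXOSC9, at 39.6 CPM on average, by 578 bases on the other strand. CDK1 fell by 0.61 ± 0.049 with samuraciclib (adjusted p = 1.82e-08) and stood at -0.498 with YKL-5-124. FEM1A, a substrate receptor of a ubiquitin ligase that degrades SLBP, was higher with YKL-5-124 than with samuraciclib (log2 difference 0.51 ± 0.16, adjusted p = 0.0235), at 5.76 and 4.04 CPM. That call was lost without YKL-5-124 1 (0.495), YKL-5-124 3 (0.50), samuraciclib 2 (0.32) or the 3 libraries low in RN7SL2 (0.35), and with DESeq2 (0.50, adjusted p = 0.0507).

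The U7 snRNP comparison asks whether its particular subunits moved with the inhibitors. LSM10 (ENSG00000181817, chromosome 1, 36391238 to 36397892, minus strand) had 17.3, 19.2 and 21.1 CPM with YKL-5-124, 19.4, 16.3 and 21.1 CPM with samuraciclib and 20.0, 21.6 and 18.5 CPM with DMSO. The 3 groups overlapped. The log2 fold change was -0.06 ± 0.10 with YKL-5-124 (95% interval -0.27 to 0.16, adjusted p = 0.681), -0.08 ± 0.10 with samuraciclib (-0.29 to 0.13, adjusted p = 0.551) and 0.03 ± 0.10 between the inhibitors (-0.19 to 0.24, adjusted p = 0.888). Its sign was not fixed, since with library size alone as scaling the change with YKL-5-124 was 0.07.

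LSM11 (ENSG00000155858, chromosome 5, 157743695 to 157760709, plus strand), the partner of LSM10 in the U7 ring and of FLASH, had 5.62, 5.37 and 5.40 CPM with YKL-5-124, 8.09, 8.70 and 8.48 CPM with samuraciclib and 6.92, 6.66 and 7.57 CPM with DMSO. Its 3 groups did not overlap, with the DMSO libraries between the YKL-5-124 libraries below and the samuraciclib libraries above. LSM11 was lower with YKL-5-124 than with samuraciclib by a log2 difference of -0.63 ± 0.11 (95% interval -0.86 to -0.39, adjusted p = 0.000599, 1.54-fold lower), which was a call. Of all tested genes, 8.57% had a larger change in this comparison. Against DMSO the log2 fold change was -0.38 ± 0.11 with YKL-5-124 (-0.62 to -0.13, adjusted p = 0.0110) and 0.25 ± 0.11 with samuraciclib (0.02 to 0.48, adjusted p = 0.0708), neither a call. With samuraciclib the adjusted p passed with library size alone as scaling (0.0255) and with a minimum mean count of 50 (0.0427). These levels rest on 108 to 201 counts per library, the fewest of the 6 genes.

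Over the 9 libraries, the 3 genes with the levels most like those of LSM11, among 8917 protein-coding genes of at least 10 CPM on average, were CPNE1, GCC1 and RAPGEF1. Pearson's r of log2 CPM was 0.997 for CPNE1, 0.994 for GCC1 and 0.975 for RAPGEF1, as a description over libraries that share the 3 treatments. CPNE1 averaged 132.9 CPM with YKL-5-124, 177.8 CPM with samuraciclib and 157.0 CPM with DMSO. Its difference between YKL-5-124 and samuraciclib was -0.42 ± 0.043 on the log2 scale (adjusted p = 2.74e-06), inside the fold threshold. GCC1 differed by -0.29 ± 0.059 and RAPGEF1 by -0.18 ± 0.042.

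**Figure D3:**
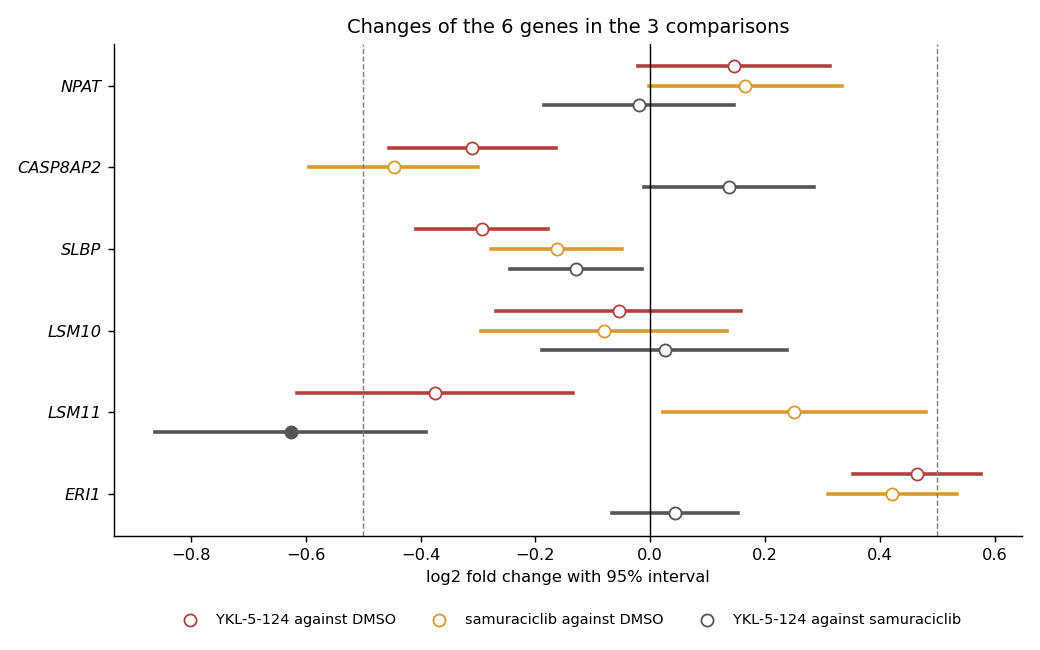
Log2 fold change of the 6 genes (point) with its 95% interval (line) in the 3 comparisons; filled points are calls and the dashed lines mark the fold threshold of 0.5 in either direction. LSM11 between YKL-5-124 and samuraciclib is the only filled point, at -0.63, and ERI1 is at 0.47 with YKL-5-124 and 0.42 with samuraciclib.

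Among the partners of LSM10 and LSM11 in the U7 snRNP and the cleavage complex, 2 of 10 genes fell and none rose with YKL-5-124 (median log2 fold change -0.14), and 2 fell and 1 rose with samuraciclib (median -0.16). Of all tested genes, 9.93% fell and 11.9% rose with YKL-5-124, and 9.55% fell and 8.17% rose with samuraciclib. None was called between the inhibitors. Both genes that fell encode parts of the histone cleavage complex that also act in general polyadenylation. SYMPK, its scaffold, had 71.7, 65.8 and 70.9 CPM with YKL-5-124, 55.1, 53.7 and 58.5 CPM with samuraciclib and 122.0, 123.6 and 124.9 CPM with DMSO. The inhibitor libraries were all below the DMSO libraries, with those of samuraciclib the lowest. SYMPK fell by 0.83 ± 0.051 with YKL-5-124 (adjusted p = 3.14e-10, 1.78-fold lower) and by 1.15 ± 0.052 with samuraciclib (adjusted p = 2.25e-11, 2.22-fold lower). The difference between YKL-5-124 and samuraciclib was 0.32 ± 0.053 (adjusted p = 0.000328), inside the fold threshold.

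CPSF2 had 246.2, 246.5 and 231.8 CPM with YKL-5-124, 220.0, 206.6 and 206.5 CPM with samuraciclib and 377.3, 373.0 and 375.0 CPM with DMSO. It showed the same order of groups as SYMPK, without overlap. CPSF2 fell by 0.64 ± 0.046 with YKL-5-124 (adjusted p = 3e-09, 1.55-fold lower) and by 0.83 ± 0.046 with samuraciclib (adjusted p = 2.5e-10, 1.78-fold lower). CPSF3, the endonuclease, stood at -0.02 with YKL-5-124 (adjusted p = 0.810) and at -0.41 ± 0.069 with samuraciclib (adjusted p = 9.28e-05), inside the threshold in both. ZNF473, the U7-associated zinc finger protein ZFP100, rose by 0.52 ± 0.096 with samuraciclib (17.4 CPM, against 12.2 CPM with DMSO, adjusted p = 0.000233), and was at 0.22 with YKL-5-124 (adjusted p = 0.0631). Its call was lost without DMSO 2 or DMSO 3 (0.49 each), and its model overlaps VRK3 by 233 bases on the other strand. Of the shared Sm proteins SNRPB, SNRPD3, SNRPE, SNRPF and SNRPG none was called. SNRPD1 and SNRPD2, whose places in the U7 ring LSM10 and LSM11 take, stood at -0.24 and -0.43 with YKL-5-124 and at -0.15 and -0.45 with samuraciclib, with no call.

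The SMN complex and the PRMT5 methylosome load the Sm and Sm-like proteins onto U7. Of 13 assembly genes 1 rose and 1 fell with YKL-5-124 (median -0.31), and 1 fell with samuraciclib (median -0.06), beside 9.93% of all genes called lower with YKL-5-124 and 9.55% with samuraciclib. With library size alone as scaling 0 were called lower in both comparisons. GEMIN8, an SMN complex subunit, had 10.4, 9.68 and 10.4 CPM with YKL-5-124, against 6.70, 6.44 and 6.33 CPM with DMSO, and rose by 0.65 ± 0.12 (adjusted p = 0.000186). With samuraciclib GEMIN8 stood at 0.39 (adjusted p = 0.0143), inside the fold threshold. WDR77, the PRMT5 cofactor, fell by 0.52 with YKL-5-124 and stood at -0.38 with samuraciclib (adjusted p = 4.5e-05). Its call with YKL-5-124 was lost without YKL-5-124 2 (-0.49), DMSO 3 (-0.497), or the 3 libraries low in RN7SL2 (-0.47). It was also lost with library size alone (-0.39) and with a minimum mean count of 50 (-0.48). The WDR77 model overlaps that of ATP5PB, at 247.9 CPM on average, by 513 bases on the other strand. GEMIN6 fell by 0.52 with samuraciclib and stood at -0.39 with YKL-5-124 (adjusted p = 0.0015). Its call with samuraciclib was lost without samuraciclib 3 (-0.49) or DMSO 2 (-0.49), with library size alone (-0.46) and with a minimum mean count of 50 (-0.499). SMN1 and SMN2 are nearly identical copies whose reads can be split between them, so their values (SMN1 at -1.01 ± 0.43 with YKL-5-124, adjusted p = 0.0608) are uncertain.

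Of 11 genes of the histone locus body and of histone transcription, none was called with either inhibitor or between them (median -0.21 with YKL-5-124 and -0.18 with samuraciclib). CDK2, the kinase of NPAT, stood at -0.47 with YKL-5-124 (adjusted p = 8.78e-07) and at -0.31 with samuraciclib (adjusted p = 0.0001). CCNE1, its cyclin, was at -0.16 with YKL-5-124 (adjusted p = 0.172), at 0.24 with samuraciclib (adjusted p = 0.0460) and at -0.39 between them (adjusted p = 0.00464). No gene was called among 7 genes of the cap-binding complex, ARS2 (SRRT) and NELF, which join the cap to histone 3′ processing. None was called among 5 genes of the export and translation of histone mRNA, MIF4GD (the SLBP-interacting protein SLIP1) included. Of all tested genes, 21.8% were called with YKL-5-124, 17.7% with samuraciclib and 6.92% between them. Whether the absence of calls in these lists differs from such shares was not tested. By the adjusted p alone some of these genes differed with YKL-5-124, such as TRRAP (-0.40, adjusted p = 1.485e-05), NELFCD (0.34, 1.62e-05) and NELFE (0.37, 1.232e-05). With samuraciclib TRRAP (-0.26, 0.0012) and NELFCD (0.38, 5.5e-06) passed that rule as well, and NELFE did not (-0.03, 0.660). The rule took 49.3% of all genes with YKL-5-124 and 44.1% with samuraciclib.

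**Figure D4:**
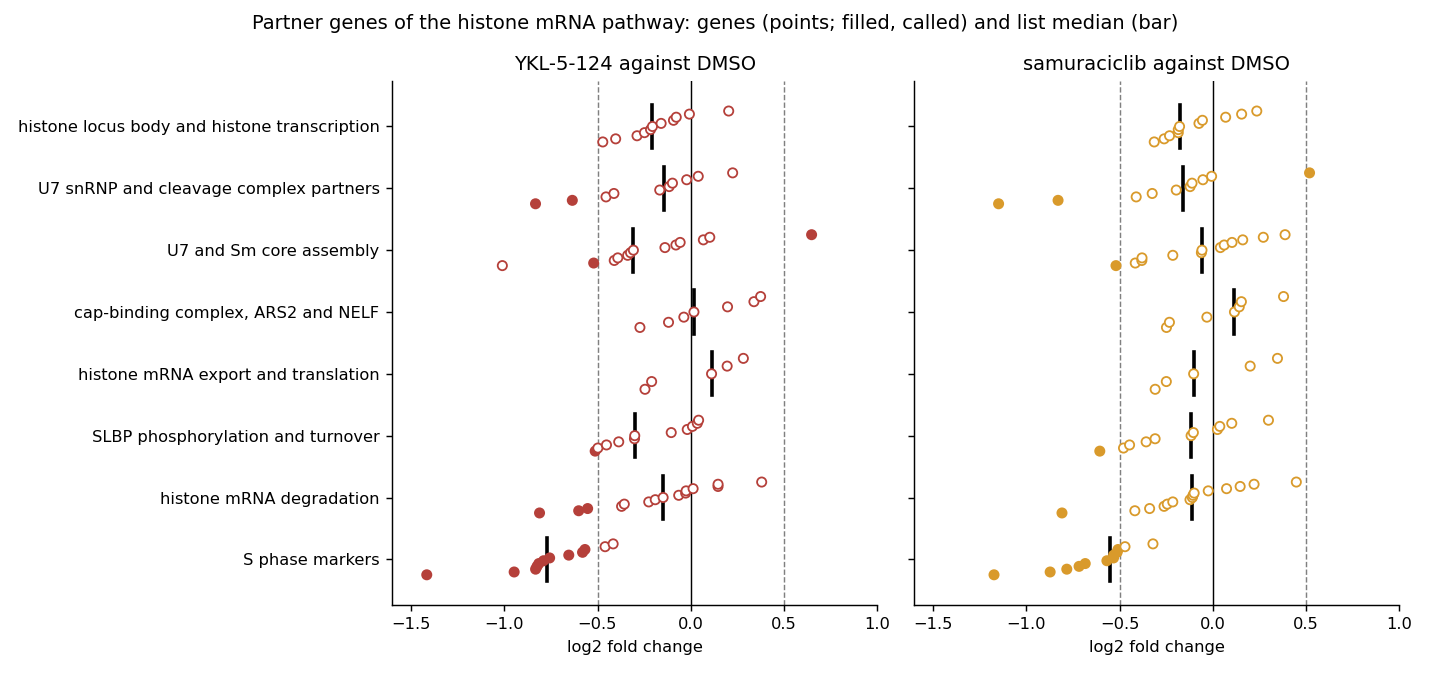
Log2 fold change with YKL-5-124 (left) and samuraciclib (right) against DMSO of the genes of 8 lists of the histone mRNA pathway; each point is a gene, filled where called, bars are list medians and dashed lines mark the fold threshold of 0.5. The S phase markers lie lowest, with medians of -0.77 and -0.55, while no gene of the histone locus body list is filled.

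ERI1 had the largest difference from DMSO of the 6 genes with YKL-5-124. ERI1 (ENSG00000104626, chromosome 8, 9002147 to 9116746, plus strand) had 89.4, 93.4 and 82.7 CPM with YKL-5-124, 85.9, 84.7 and 87.3 CPM with samuraciclib and 63.4, 66.0 and 63.0 CPM with DMSO. Every inhibitor library was above every DMSO library, and the inhibitor groups overlapped. The log2 fold change was 0.47 ± 0.053 with YKL-5-124 (95% interval 0.35 to 0.58, adjusted p = 9.75e-07, 1.38-fold higher) and 0.42 ± 0.053 with samuraciclib (0.31 to 0.53, adjusted p = 4.06e-06, 1.34-fold higher). Both were short of the fold threshold, and 30.5% of all genes had a larger change in each comparison. With YKL-5-124 the gene was past the threshold with library size alone as scaling (0.59), with a minimum mean count of 50 (0.50) and without YKL-5-124 3 (0.51). YKL-5-124 and samuraciclib differed by 0.04 ± 0.052 (-0.07 to 0.15, adjusted p = 0.597). Its paralogs ERI2 and ERI3 had negative log2 changes, -0.16 (adjusted p = 0.0994) and -0.30 (adjusted p = 0.00038) with YKL-5-124 and -0.29 (adjusted p = 0.00537) and -0.40 (adjusted p = 2.54e-05) with samuraciclib, with no call.

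The genes that degrade histone mRNA with ERI1 were given from a list of 15. With YKL-5-124, 3 fell and none rose (median -0.15), and with samuraciclib 1 fell and none rose (median -0.11), beside 9.93% of all genes called lower with YKL-5-124 and 9.55% with samuraciclib. With library size alone as scaling 1 was called higher and 1 lower in each comparison. LSM7, a subunit of the LSM1-7 ring that binds the oligouridylated 3′ end, had 42.8, 39.1 and 47.0 CPM with YKL-5-124, 45.4, 40.7 and 42.7 CPM with samuraciclib and 76.2, 79.3 and 70.4 CPM with DMSO. Both inhibitor groups lay below DMSO and overlapped each other. LSM7 fell by 0.81 ± 0.069 with YKL-5-124 (adjusted p = 2.5e-08, 1.75-fold lower) and by 0.81 ± 0.069 with samuraciclib (adjusted p = 3.92e-08, 1.75-fold lower). The other subunits LSM1 to LSM6 were not called, with log2 changes of -0.37 (LSM5) to 0.15 (LSM1) with YKL-5-124. TUT4, a terminal uridylyltransferase, and EXOSC10, the nuclear exosome exonuclease, fell by 0.55 ± 0.068 and 0.60 ± 0.064 with YKL-5-124. The call of TUT4 was lost without YKL-5-124 3 (-0.48), and both were lost with library size alone as scaling (-0.42 and -0.47). With samuraciclib both genes were also lower, inside the fold threshold. TUT4 stood at -0.34 (adjusted p = 0.000447) and EXOSC10 at -0.42 (adjusted p = 3.16e-05). The TUT4 model overlaps that of PRPF38A by 12558 bases on the other strand. PRPF38A averaged 90.98 CPM over all libraries, and the strand setting is not given, so reads from the overlap may not be told apart.

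The histone genes, whose mRNAs these factors act on, were counted from the same libraries. Of 90 genes with symbols of replication-dependent histones, 44 were tested, 41 of them annotated as protein-coding. Of the 44, 31 rose and 2 fell with YKL-5-124 (median 1.16). With samuraciclib 25 rose and 3 fell (median 0.82), and between YKL-5-124 and samuraciclib 10 were higher and none lower (median 0.37). The shares of all genes called higher were 11.9% with YKL-5-124 against DMSO, 8.17% with samuraciclib against DMSO and 4.46% with YKL-5-124 against samuraciclib. Among the 37 genes in which a stem-loop was found, 26 rose and 2 fell with YKL-5-124, and 22 rose and 3 fell with samuraciclib. Since the RNA was selected by its poly(A) tail, these counts cover polyadenylated histone transcripts and not the stem-loop-ended mRNA that SLBP, the U7 snRNP and ERI1 act on. Histone genes are near-identical within a class, so that reads may be split between copies.

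Of the genes whose stem-loops are printed above, HIST1H2BK averaged 71.2 CPM with YKL-5-124, 48.0 CPM with samuraciclib and 17.3 CPM with DMSO. HIST1H2AC averaged 96.8 CPM with YKL-5-124, 77.2 CPM with samuraciclib and 35.7 CPM with DMSO. HIST1H4I averaged 26.9 CPM with YKL-5-124, 18.7 CPM with samuraciclib and 6.35 CPM with DMSO. All 3 rose with both inhibitors, most with YKL-5-124. HIST1H3G rose by a log2 change of 0.99 ± 0.15 with YKL-5-124 (adjusted p = 2.7e-05) and stood at 0.41 ± 0.16 with samuraciclib (adjusted p = 0.0403), short of the fold threshold. The genes called against the direction of the list were HIST1H2BH (-0.76 ± 0.092 with YKL-5-124 and -0.63 ± 0.091 with samuraciclib), HIST2H2AC (-1.91 ± 0.30 and -1.32 ± 0.29) and, with samuraciclib, HIST1H2AJ (-0.98 ± 0.32).

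Histone factors are tied to S phase, so S phase genes were listed beside the 6 genes, none of which was called against DMSO. Of 12 S phase markers 10 fell with YKL-5-124 (median -0.77) and 10 with samuraciclib (median -0.55), with none higher and none called between the inhibitors. With library size alone as scaling 8 fell with YKL-5-124 and 6 with samuraciclib, where MCM3, MCM4, MCM6 and PCNA lost their calls (-0.47 to -0.45). The shares of all genes called lower were 9.93% with YKL-5-124 and 9.55% with samuraciclib. RRM2, the small subunit of ribonucleotide reductase, averaged 49.7 CPM with YKL-5-124, 58.8 CPM with samuraciclib and 133 CPM with DMSO and fell by 1.41 with YKL-5-124 and by 1.17 with samuraciclib on the log2 scale. POLA1, the catalytic subunit of DNA polymerase alpha, fell by 0.95 with YKL-5-124 and by 0.68 with samuraciclib. In bulk samples, fewer cells in S phase and less RNA per cell cannot be told apart. The part of this difference in the values of SLBP, CASP8AP2 and LSM11 was not tested.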

How the data were processed

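Poly(A)-selected RNA from FaDu cells was sequenced in 9 libraries. By the submitters' processing notes, HISAT2 was used for alignment to GRCh38 and featureCounts 2.0.6 for counting. The authors deposited raw counts per gene, with no normalization, together with the position and length of each gene model. The annotation release and the strand setting are not given in the sources used here.

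Groups were taken from the labels. Genes were filtered with filterByExpr and scaled with TMM factors in edgeR 4.0.16 (R 4.3.3), in 1 fit of all 9 libraries without covariates. The quasi-likelihood F-test was two-sided, p-values were adjusted over 16065 genes by Benjamini-Hochberg, and the SE was the log2 fold change divided by the square root of F. CPM per kb is CPM divided by the gene length in the table. The 6 genes and the lists were chosen with earlier results of these data known. The genes named were the 6, their divergent neighbours within 1000 bases, CDK7, up to 4 called genes with the smallest adjusted p per list and comparison (not every one is printed), genes called against a list's direction, and the 3 genes most like LSM11. SNRPB, SNRPE, CPSF3, CDK2, CCNE1, SNRPD1, ERI2 and other uncalled list genes were named after their values were seen.

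On simulated counts for these 16065 genes, of 1.5-fold changes 71% were recovered for YKL-5-124 against DMSO, 67.3% for samuraciclib against DMSO and 64.9% for YKL-5-124 against samuraciclib. The biological coefficient of variation was 0.0631. Alternatives were DESeq2 1.42.0, other scalings, filters and thresholds, glmTreat, a replicate block, and leaving out libraries. Python 3.11.15 was used for the sequences and figures.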

Additional observations from a re-analysis of the deposited data

Results flagged for a closer look

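LSM11 was flagged because it differed between YKL-5-124 and samuraciclib, a comparison in which 8.57% of all tested genes had a larger change. Every YKL-5-124 library was below, and every samuraciclib library above, the DMSO libraries. The share of all genes with this order of libraries was not counted. Against DMSO it was not called with YKL-5-124 (edgeR, adjusted p = 0.0110) or with samuraciclib (0.0708). The test of the difference between YKL-5-124 and samuraciclib gave a log2 value of -0.63 (edgeR, adjusted p = 0.000599). It was between -0.66 and -0.60 with each library left out in turn, and between -0.64 and -0.56 under the other alternatives.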

How the results depend on the processing

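No result for the 6 genes turned to a call in the other direction in any of 360 recomputations (18 results, 20 alternatives each). Of these, 347 stayed on the same side of the threshold, 2 lost the call and 11 gained it. The number of the 6 genes called was 1 (ERI1) with YKL-5-124 against DMSO with library size alone as scaling and 1 with a minimum mean count of 50. By the adjusted p alone it was 4 with YKL-5-124 and 3 with samuraciclib. For YKL-5-124 against samuraciclib it was 0 with a log2 fold change beyond 1 and 0 with glmTreat, the first a threshold above the size of the LSM11 difference and the second a test against 0.5 in place of 0. Leaving out each library in turn gave 0 to 1 (ERI1 without YKL-5-124 3, 0.51), 0 to 1 (CASP8AP2 without samuraciclib 2, -0.50) and 1 to 1 in the 3 comparisons.

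Of all genes, 3506, 2847 and 1112 were called in YKL-5-124 against DMSO, samuraciclib against DMSO and YKL-5-124 against samuraciclib. By the adjusted p alone 7919, 7087 and 4003 were called, with a log2 fold change beyond 1 1248, 845 and 264, and with glmTreat 1458, 982 and 71. Library size alone moved the median log2 fold change of all genes to 0.14, 0.06 and 0.08 and the share of higher calls to 72.7%, 57.1% and 79.5%, against 54.5%, 46.1% and 64.5%. With the replicate number as a block 3494, 2825 and 1101 genes were called, and 0, 0 and 1 of the 6. The labels name no pairs, and deviations of same-numbered libraries correlated at -0.06 to 0.17. All the negative values involved DMSO 2 or DMSO 3. Whether sets of libraries cross the groups under other numbers was not tested. The 3 libraries low in RN7SL2, 1 of each group, had the highest correlations of all pairs across groups, 0.173 (YKL-5-124 2 with samuraciclib 2), 0.148 (YKL-5-124 2 with DMSO 3) and 0.146 (samuraciclib 2 with DMSO 3). Without them 1 gene of the histone locus body list was called lower with YKL-5-124 and 1 of the export list higher with samuraciclib. With library size alone 1 gene of the cap-binding list was called higher with YKL-5-124. LSM11, at 108 to 201 counts, had the widest intervals of the 6.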
